A study of Mus musculus with 12 samples.

Results

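Mast cells grown from mouse bone marrow were divided here into arrays with a low and arrays with a high signal of Prss34, which encodes the serine protease mMCP-11, a product of mouse basophils. Of the 12 arrays of the series, 8 had a signal above 10 (log2) for Fcer1a, which encodes the IgE-binding chain of the mast cell IgE receptor, and these were split at a Prss34 signal of 9. The split gave 2 low arrays, replicates 2 and 3 of the ACKR2-/- cells at 10 weeks, and 6 high arrays. The high arrays were replicate 1 of the ACKR2-/- cells at 10 weeks, replicates 1 to 3 of the wild type cells at 10 weeks and replicates 1 and 2 of the wild type cells at 2 weeks. The highest low value of Prss34 was 7.52 and the lowest high value was 11.30, so no array lay near the threshold. Because measured values chose the arrays, the differences between the low and the high arrays are given as a description, with no test. The only test reported is the comparison of the labelled genotypes at 10 weeks.

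The study set cultured mast cells of wild type C57BL/6 mice beside those of ACKR2-/- mice, also called D6-/- and of strain C57BL/6, collected after 2 or 10 weeks in culture (3 arrays a group). ACKR2 is an atypical chemokine receptor that takes up inflammatory CC chemokines. Marrow came from female mice of 4 to 6 weeks of age. All cultures received 12.5 ng/ml stem cell factor (SCF) and 10 ng/ml interleukin 3, which both support mast cells, and interleukin 3 is also a growth factor of basophils and other myeloid cells. Floating cells were taken into fresh flasks from 48 hours on, and the protocol calls the mast cells homogeneous after 4 weeks. For some experiments, 2-week cultures were purified with an antibody to CD117, the product of Kit. Which arrays this concerns is not stated. Replicates are labelled as biological, without an animal or culture for any of them, so p-values measure the spread between these arrays, which may be partly technical. How ACKR2 was deleted is not given in the sources used here. The Ackr2 probe set read 7.88 to 8.35 on the 5 wild type arrays of the 8 and 8.16 to 8.35 on the 3 ACKR2-/- arrays. These ranges overlap, so the probe set did not separate the genotypes, and the labelled genotype was not checked by it.

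Mast cells and basophils both carry the IgE receptor and release histamine and other mediators when it is cross-linked. Mast cells are marked by Kit, by carboxypeptidase A and by tryptases and chymases bound to heparin in their granules. In the mouse, basophils are marked by the proteases of Prss34 and Mcpt8 and lack high Kit. Monocytes, macrophages and granulocytes can grow beside mast cells in young marrow cultures. MHC class II molecules, held by the invariant chain encoded by Cd74 until they are loaded with peptide, present antigen on macrophages, dendritic cells and B cells. Immediate early genes, such as Fos and Egr1, are transcribed within minutes of a stimulus.

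Signals are log2 values in which 1 unit is a 2-fold difference, and a difference here is the mean of the 2 low arrays minus the mean of the 6 high arrays. The values carry no detection call, so a signal of 5 to 7 cannot be separated from background. In bulk RNA, fewer cells of a type and less RNA per cell cannot be told apart. Over all genes the median difference was 0.01. The authors' normalisation gives every array the same distribution, so this median lies near 0 by construction, and a shift shared by most genes would not be seen. The 4 arrays outside the split, wild type 2-week replicate 3 and the 3 ACKR2-/- 2-week arrays, had Fcer1a between 4.83 and 5.47, against 13.74 to 14.14 on the other 8. Xist, a marker of an inactivated X chromosome, was at most 6.23 on those 4 arrays and at least 13 on the 8. Kdm5d, of the Y chromosome, was at least 10.06 on the 4 and at most 6.42 on the 8, although every mouse is labelled female. Those 4 arrays enter only the estimate of spread in the labelled comparison.

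The sequences upstream of 6 genes that the results turn on are shown because the genes were lower on the low arrays by more than 1 log2 unit (Prss34, Mcpt8, H2-Aa, H2-Eb1) or were not lower there (Fcer1a, Cpa3). Each is the 250 bases before the RefSeq start of the gene in GRCm38.p6, written along the gene's strand. For the first 4, capitals mark AGATAA on either strand, a word that GATA factors are known to bind. GATA2 is a GATA factor of mast cells and basophils. For the class II genes, capitals mark GCAAC and ATTGG with 20 to 35 bases between them, also searched on both strands, which are words of the X and Y boxes of class II promoters.
Prss34 (chr17:25298144-25298393, plus strand): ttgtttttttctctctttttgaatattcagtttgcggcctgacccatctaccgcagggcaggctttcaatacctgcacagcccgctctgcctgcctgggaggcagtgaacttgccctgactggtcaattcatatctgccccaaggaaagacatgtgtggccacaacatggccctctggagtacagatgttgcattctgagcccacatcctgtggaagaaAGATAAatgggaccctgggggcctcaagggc
Mcpt8 (chr14:56085198-56085447, minus strand): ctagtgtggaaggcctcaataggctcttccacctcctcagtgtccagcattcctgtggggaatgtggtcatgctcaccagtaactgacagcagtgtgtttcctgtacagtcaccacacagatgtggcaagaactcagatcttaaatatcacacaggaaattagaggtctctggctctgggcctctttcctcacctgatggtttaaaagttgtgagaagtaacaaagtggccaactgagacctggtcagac
Fcer1a (chr1:173227230-173227479, minus strand): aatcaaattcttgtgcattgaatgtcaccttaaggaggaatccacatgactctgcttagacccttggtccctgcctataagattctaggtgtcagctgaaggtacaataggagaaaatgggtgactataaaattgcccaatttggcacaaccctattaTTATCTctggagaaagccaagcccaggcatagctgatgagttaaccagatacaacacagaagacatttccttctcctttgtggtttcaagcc
Cpa3 (chr3:20242182-20242431, minus strand): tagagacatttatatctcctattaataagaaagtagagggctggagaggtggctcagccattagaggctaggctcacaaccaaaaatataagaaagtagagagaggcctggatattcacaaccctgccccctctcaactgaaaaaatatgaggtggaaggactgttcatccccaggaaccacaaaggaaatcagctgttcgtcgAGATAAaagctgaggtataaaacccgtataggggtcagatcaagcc
H2-Aa (chr17:34287824-34288073, minus strand): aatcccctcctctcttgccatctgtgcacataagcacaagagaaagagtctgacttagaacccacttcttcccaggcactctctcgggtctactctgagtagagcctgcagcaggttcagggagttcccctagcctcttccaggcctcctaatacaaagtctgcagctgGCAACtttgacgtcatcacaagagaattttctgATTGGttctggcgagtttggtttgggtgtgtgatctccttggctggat
H2-Eb1 (chr17:34305617-34305866, plus strand): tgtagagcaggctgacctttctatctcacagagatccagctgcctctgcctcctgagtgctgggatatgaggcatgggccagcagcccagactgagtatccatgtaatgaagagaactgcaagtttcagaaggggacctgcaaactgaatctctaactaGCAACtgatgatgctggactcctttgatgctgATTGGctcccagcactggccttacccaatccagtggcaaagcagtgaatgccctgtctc
AGATAA began 31 bases before the start in Prss34, 92 in Fcer1a and 46 in Cpa3, and was not found in the window of Mcpt8. Of 32851 windows of this length, 9.99% held it. The class II pair began 81 bases before the start in H2-Aa, with 28 bases between the words, and 91 bases before the start in H2-Eb1, with 27 bases between them. Of the same windows, 0.673% held the pair, and 33.8% held ATTGG alone. The motif AGATAA was thus present upstream of a gene that was lower on the low arrays and of both genes that were not. These matches describe the letters only.

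Across 19938 genes, far more genes were lower than higher by a wide margin on the low arrays. With at least 1 log2 unit between the nearest low and high arrays, 228 genes were lower, 1.14% of all, and 27 were higher, 0.135%. Without that margin the counts were nearly even. The 2 low arrays lay below all 6 high arrays for 1771 genes (8.88%) and above them for 1976 (9.91%), which makes 18.8% of all genes without overlap in either direction. The 228 genes had a median difference of -2.27 and the 27 a median of 2.02. Since the arrays were chosen on Prss34, nothing is read from these shares beyond their size.

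The lists with the lowest values on the low arrays were of monocytes, granulocytes, granule proteases, immediate early genes and MHC class II, and the lists of mast cell receptors, IgE signalling, exocytosis and heparin synthesis were centred near the median of all genes. Of 27 lists with 578 measured genes, monocyte and macrophage genes had the lowest median difference, -1.59. Neutrophil genes followed at -1.47, granule proteases at -1.30, eosinophil genes at -1.08, immediate early genes at -0.99 and class II genes at -0.88. The protease list and the basophil list hold Prss34, whose place the split fixed. The lists of B cells (-0.13), T and NK cells (-0.11), stromal cells (-0.07) and erythroid cells (-0.03) were near 0. Cholesterol synthesis genes had the highest median, 0.34.

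**Figure D1:**
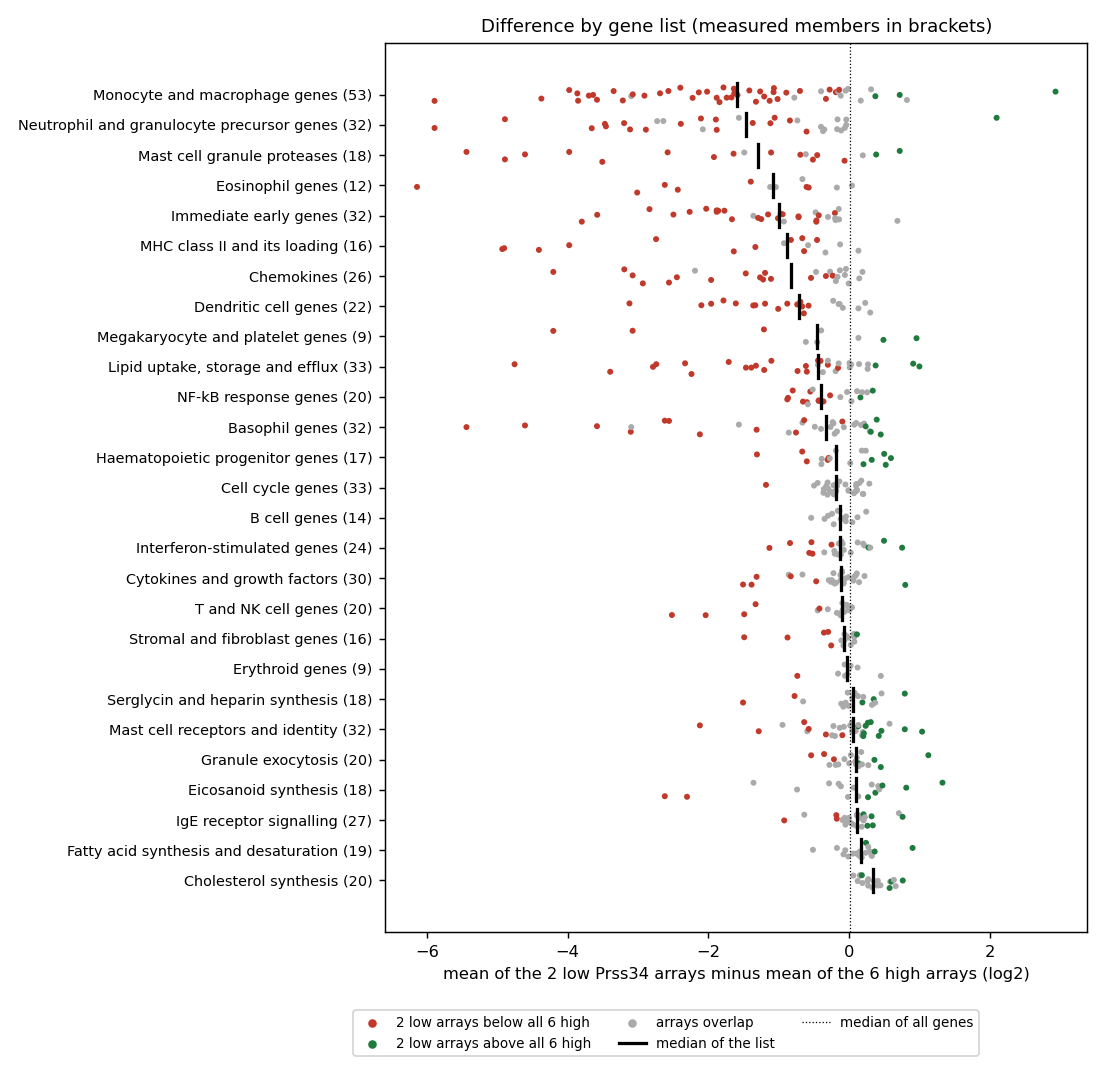
Difference between the mean of the 2 low and the mean of the 6 high Prss34 arrays (horizontal axis, log2) for each measured gene (point) of 27 lists (rows), with the median of each list as a black bar and that of all genes as a dotted line. Red points, whose low arrays lay below all high arrays, fill the left side of the myeloid, protease, class II and immediate early rows, while the points of the IgE signalling row lie within 1 unit of 0.

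Basophil genes were parted unevenly. Of 32 measured, Prss34 included, 11 lay below all high arrays (34.4%, against 8.88% of all genes), 4 above (12.5%, against 9.91%) and 17 overlapped. The median difference was -0.33. Prss34 itself read 7.52 and 7.51 on the low arrays and 11.30, 12.27 and 12.68 (lowest, median and highest) on the high ones, a 24.4-fold difference that the split fixed. Mcpt8, which encodes the basophil protease mMCP-8, read 7.41 and 7.02 against 11.81, 12.71 and 13.24, a difference of -5.44. Both proteases had their lowest high value on ACKR2-/- 10-week array 1.

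Genes that basophils share with other myeloid cells were also lower. Itgam, the CD11b integrin chain, read 6.43 and 6.32 against 9.08, 10.08 and 10.79. Cebpa, a transcription factor of granulocyte and monocyte precursors, read 6.80 and 6.74 against 9.35, 9.85 and 10.50. Alox15, a lipoxygenase of eosinophils and macrophages, read 7.22 and 7.03 against 9.39, 9.73 and 10.09. For all 3 the low arrays were close together and at least 2 log2 units below the nearest high array. Ccl3, a CC chemokine, was lower without being low, with 11.22 and 10.08 against 12.90, 13.19 and 13.51.

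Other genes associated with basophils overlapped or differed little, and they are given for that role. Il4 read 8.36 and 8.38 against 8.30 to 8.85, and Il3ra, the interleukin 3 receptor chain, 10.75 and 11.12 against 10.81 to 11.51. Cd200r3, an activating receptor of basophils and mast cells, was lower by 0.64, with 11.69 and 11.88 against 12.12, 12.42 and 12.67. Ms4a3, also listed as a basophil marker, read 6.97 and 7.21 and overlapped. Wild type 10-week array 3 (7.18) and ACKR2-/- 10-week array 1 (7.04) read like the low arrays, and the other high arrays read 8.83 to 9.88. The averages of the 32 genes were 10.28 and 10.40 on the low arrays and 11.25 to 11.54 on the high arrays. They include Prss34, so part of this distance was fixed by the split.

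**Figure D2:**
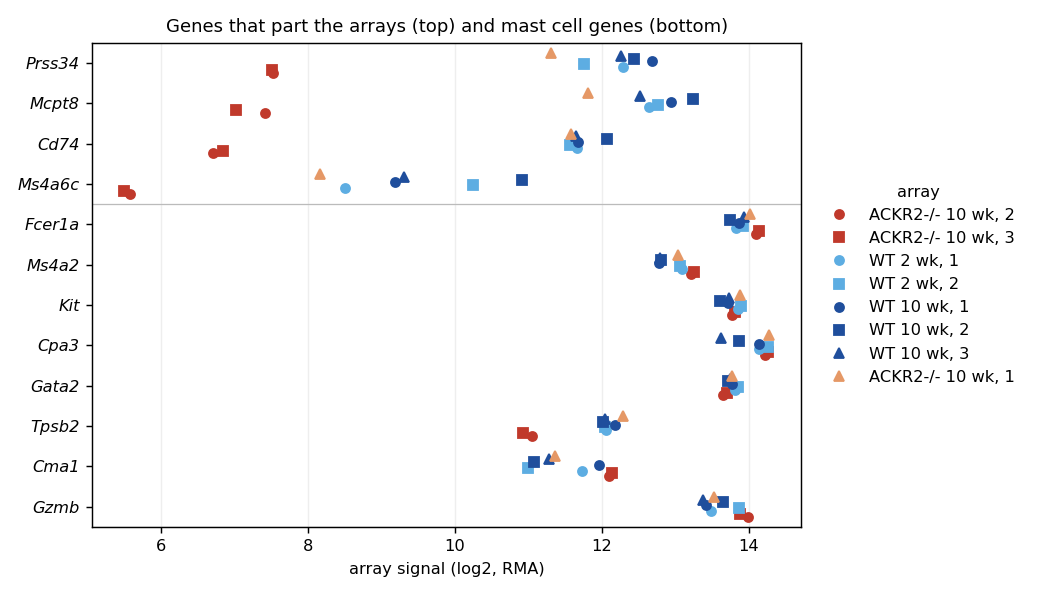
Signal (horizontal axis, log2) of 12 genes on each of the 8 arrays, with 1 symbol per array and red for the 2 low Prss34 arrays. In Prss34, Mcpt8, Cd74 and Ms4a6c the red symbols stand at 7.52 or below, apart from all others, while Fcer1a, Ms4a2, Kit, Cpa3 and Gata2 cluster within about 1 log2 unit on all 8 arrays.

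The granule proteases were divided between lower and unchanged or higher ones. Of 18 measured proteases of mast cell and related granules, 13 lay below all high arrays (72.2%, against 8.88% of all genes). Another 2 lay above (11.1%, against 9.91%) and 3 overlapped. The 13 include Prss34, whose place the split fixed. Mcpt8, Ctsg, Prss34, Ctss, Mcpt4 and Ctsl differed the most. Ctsg, the cathepsin G of neutrophil and mast cell granules, read 6.58 and 6.17 against 10.37, 11.32 and 12.18. Mcpt4, a chymase of connective tissue mast cells, read 7.29 and 7.30 against 8.66, 11.05 and 12.66, so the high arrays themselves spread over about 4 units. Ctss, the cathepsin that trims the invariant chain, read 6.94 and 6.89 against 9.84, 11.13 and 11.90.

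Other granule proteases were as high on the low arrays as elsewhere, or higher. Cpa3, the mast cell carboxypeptidase, read 14.22 and 14.27 against 13.63, 14.14 and 14.28, and the arrays overlapped. Cma1, another chymase, was above all high arrays with 12.10 and 12.14 against 11, 11.32 and 11.96. Gzmb, granzyme B, was above them by a narrow margin with 13.99 and 13.88 against 13.37, 13.51 and 13.87. The tryptases were lower by less than the basophil proteases were. Tpsb2 read 11.06 and 10.93 against 12.02, 12.05 and 12.29, Tpsab1 read 7.48 and 7.45 against 8.84 to 10.02, and Tpsg1 differed by -0.46. Ctsd, the lysosomal cathepsin D, differed by only -0.07. Chymases and tryptases are families of near-identical genes that can share probes, so values of single members are uncertain.

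In the chymase locus the lower genes lay side by side. In the RefSeq order of chromosome 14 from Cma1 to Gzmb there are 15 protein-coding genes, of which 13 were measured. Mcpt1, Mcpt4, Mcpt8 and Ctsg, which were below all high arrays, as were 8.88% of all genes, stand in 1 stretch. Within it Mcpt2 overlapped at 9.01 and 9.41 against 8.61 to 12.75, and Mcpt9 was not measured. Cma1 on one side of the stretch was above all high arrays, as were 9.91% of all genes, and so was Gzmb at the far end of the other side. The granzyme genes Gzme, Gzmd, Gzmg, Gzmf and Gzmc, between Ctsg and Gzmb, were below 7 on all 8 arrays, with overlap, and Gzmn, beside them, was above all high arrays at a signal under 6. In the tryptase locus on chromosome 17, from Prss34 to Tpsg1, the split fixed the place of Prss34. Beside it, Prss28 (-0.52), Tpsb2 (-1.11) and Tpsg1 (-0.46) were below all high arrays, as were 8.88% of all genes, and Prss29 overlapped.

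Genes of mast cell identity and of the IgE receptor differed by small amounts in both directions. Of 32 measured, 16 overlapped, 10 lay above all high arrays (31.2%, against 9.91% of all genes) and 6 below (18.8%, against 8.88%), with a median difference of 0.06. In 23 of the 32 the difference was under 0.5 in size, and only Hdc passed the 1 log2 margin. The 6 smallest differences were those of Kit, Enpp3, Srgn, Fcer1g, Cyp11a1 and Csf2rb, all under 0.10 in size. Kit, the SCF receptor, read 13.78 and 13.82 against 13.61, 13.79 and 13.90. Fcer1g, the signalling chain of the IgE receptor, read 12.79 and 12.58 against 12.56, 12.77 and 12.90. Enpp3, the CD203c ectoenzyme of basophils and mast cells, was at 5.42 to 5.88 on all 8 arrays.

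The ligand-binding and beta chains of the IgE receptor were slightly higher on the low arrays. Fcer1a read 14.09 and 14.14 against 13.74, 13.90 and 14.02, and Ms4a2, the beta chain, read 13.21 and 13.25 against 12.78, 12.92 and 13.09. These differences of 0.23 and 0.31 are small beside those of the basophil proteases. Gata2, a transcription factor of both lineages, read 13.65 and 13.71 against 13.72 to 13.85, a difference of -0.10. Mitf, a further factor of mast cells, overlapped at 11.09 and 11.07 against 10.66 to 11.13. Slc18a2, which loads amines into granules, and Tph1, of serotonin synthesis, were higher by 0.21 and 0.26.

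The larger differences among these genes went both ways. Hdc, the enzyme that makes histamine, read 10.30 and 9.23 against 11.73, 11.82 and 12.12, a difference of -2.12, and it is also a basophil gene. Rgs1, a regulator of G protein signalling, was lower by 1.29, with 11.58 and 11.74 against 12.53, 12.98 and 13.27. Mrgpra4, a receptor of the Mas-related family, was higher with 12.45 and 12.41 against 11.16, 11.43 and 11.60. Hs3st1, a heparan sulphate sulphotransferase, was higher with 9.22 and 9.33 against 8.10, 8.48 and 9.06.

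The signalling, exocytosis and heparin genes behind the mast cell response had medians near 0, and none passed the 1 log2 margin. More of them were without overlap than the 18.8% of all genes, 29.6% for signalling, 35% for exocytosis and 27.8% for heparin. Of 27 measured IgE signalling genes, 19 overlapped, 3 lay below and 5 above, with a median of 0.11, and 23 differed by less than 0.5. The adaptors Gab2, Lat and Lat2 and the kinases Prkcb, Prkcd and Prkce differed by less than 0.07. Lat read 12.46 and 12.68 against 12.37, 12.54 and 12.73. Fyn, a kinase of the Src family, had the largest difference, -0.92, with 8.51 and 8.92 against 9.41 to 9.92, while Sos1, an exchange factor of Ras, was higher by 0.76. Syk, the kinase recruited to the receptor, read 10.51 and 10.43 against 10.55 to 10.81.

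Of 20 exocytosis genes, 13 overlapped, 3 lay below and 4 above, with a median of 0.09. Vamp7, Unc13d, Rab27b, Lamp2, Stxbp2 and Syt2 differed by 0.11 or less, and Vamp7, a vesicle fusion protein, read 10.37 and 10.22 against 10.06 to 10.56. Syt9, a synaptotagmin, was higher with 8.83 and 8.47 against 7.17 to 7.74, and Stxbp3 lower with 8.14 and 8.10 against 8.48 to 8.85. Of 18 genes of serglycin and heparin synthesis, 13 overlapped, 2 lay below and 3 above. Srgn, the serglycin core protein, read 12.86 and 12.99 against 12.44 to 13.21. Ndst2, the sulphotransferase needed for mast cell heparin, was above all high arrays by a narrow margin, with 13.30 and 13.19 against 12.72 to 13.08. Extl3, a glycosyltransferase of heparan sulphate chains, was lower with 7.85 and 8.42 against 8.98, 9.73 and 10.21.

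Monocyte and macrophage genes made up the broadest difference. Of 53 measured, 40 lay below all high arrays (75.5%, against 8.88% of all genes), 3 above (5.66%, against 9.91%) and 10 overlapped. A margin of at least 1 log2 unit between nearest arrays was passed downward by 20 of the 53, and by 1.14% of all genes. Chil3, a chitinase-like protein secreted by macrophages, read 5.56 and 5.23 against 9.89, 11.33 and 12.61. Cybb, the membrane subunit of the phagocyte oxidase, read 6.31 and 5.96 against 9.44, 10.43 and 11.65. Mrc1, the mannose receptor, read 6.12 and 6.06 against 9.39, 10.08 and 10.49. On the low arrays these 3 genes were all under 6.4.

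Defining macrophage genes, given for that role, were lower as well. Adgre1, a surface glycoprotein of macrophages, read 7.60 and 6.85 against 9.98, 10.61 and 11.21, and Csf1r, the receptor of macrophage growth factor, 6.82 and 6.62 against 8.76, 9.79 and 10.84. Lyz2, lysozyme of myeloid cells, was still high at 9.81 and 9.03, against 12.05, 13.43 and 13.88. Cd68, a lysosomal protein of macrophages, read 9.64 and 9.74 against 10.16, 11.44 and 12.37. Not all such genes followed. Tyrobp, an adaptor of myeloid receptors, overlapped with 13.17 and 12.60 against 12.35 to 13.18. Spi1, a transcription factor that mast cells also use, was just below with 12.23 on both low arrays against 12.26 to 12.67. Cx3cr1, a receptor of monocytes, read 11.24 and 11.09 against 10.30 to 11.23. The averages over the 53 genes were 7.76 and 7.79 on the low arrays and 8.82 to 10.07 on the high arrays.

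Ms4a6c, a membrane protein gene of monocytes, read 5.57 and 5.50 against 8.16, 9.25 and 10.92. It lies on chromosome 19 in a run of 13 protein-coding genes from Ms4a1, a B cell gene, to Ms4a2, of the IgE receptor, of which 11 were measured. Ms4a7, Ms4a4a, Ms4a4c, Ms4a6c and Ms4a6d were below all high arrays, as were 8.88% of all genes, with differences from -3.85 to -1.64. Ms4a2 was above them, as were 9.91% of all genes, and so was Ms4a5 at a dim 4.81 and 4.83 against 4.33 to 4.66. Ms4a1 was at 5.32 to 5.87 throughout. Neighbours of 1 gene cluster thus lay below, above or among the high arrays.

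Neutrophil genes were divided between lower and overlapping ones. Of 32 neutrophil genes, 17 lay below all high arrays (53.1%, against 8.88% of all genes), 1 above (3.1%, against 9.91%) and 14 overlapped. The median was -1.47. Mpo, myeloperoxidase, read 6.89 and 6.99 against 9.07, 10.60 and 11.39, and Lcn2, a granule protein that binds iron carriers, 6.89 and 6.91 against 9.20, 10.18 and 11.45. Cxcr2, the receptor of neutrophil-attracting chemokines, read 6.00 and 6.11 against 9.26, 9.77 and 10.11. Elane, neutrophil elastase, was lower with 7.10 and 7.04, but its high arrays ran from 7.47 to 11.14, close to the low arrays at their lower end.

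The neutrophil genes Ngp, S100a8 and S100a9 overlapped, as some high arrays read as low as the low ones. S100a8, for example, read 6.60 and 5.96 against 6.51 to 11.84. Camp, Ltf and Retnlg, of mature granules, were at most 8.31 on all 8 arrays. Il1r2, the decoy receptor of interleukin 1, was the exception and read 10.56 and 10.21 against 7.04, 8.34 and 9.30.

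Of 12 eosinophil genes, 7 lay below all high arrays (58.3%, against 8.88% of all genes), none above and 5 overlapped. Rnase2a, a ribonuclease of the eosinophil-associated family, had 1 of the largest differences of all genes, with 5.68 and 5.42 against 11.08, 11.78 and 11.96. Its 6 high values lay within 1 log2 unit of each other. Epx and Prg2, the granule peroxidase and major basic protein, behaved otherwise. Epx read 6.49 and 6.52 against 6.77, 8.13 and 9.17, and Prg2 read 6.42 and 6.47 against 6.77, 9.40 and 10.08. Clec12a, an inhibitory lectin of myeloid cells, read 5.78 and 5.58 against 7.53, 8.91 and 9.76. Il5ra, the interleukin 5 receptor chain, was at 6.45 to 6.87 on all 8 arrays.

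Most antigen presentation genes were lower. Of 16 class II genes and genes of class II loading, 11 lay below all high arrays (68.8%, against 8.88% of all genes). None lay above and 5 overlapped, with a median of -0.88. Cd74 read 6.70 and 6.84 against 11.57, 11.66 and 12.06, a difference of -4.93. The alpha and beta chains of I-A had a like pattern, H2-Aa with 6.23 and 6.31 against 10.77, 11.12 and 11.77, and H2-Ab1 with 6.44 and 6.79 against 10.56, 11.02 and 11.62. H2-Eb1, the beta chain of I-E, read 7.83 and 7.89 against 9.28, 9.50 and 9.74. The 6 high arrays lay within about 1 log2 unit for each of these 4 genes, a narrower spread than for Chil3 or Mpo.

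Members with helper roles differed less. Lgmn, a lysosomal protease, read 7.97 and 7.91 against 10.04, 10.73 and 11.36. H2-DMa, which edits the bound peptide, differed by -0.83, and Ciita, the transcriptional activator of the class, by -0.64 with 7.22 and 7.22 against 7.63 to 8.08. Cd86, a costimulatory ligand, read 6.5 and 6.33 against 7.41 to 8.05. H2-Oa, which restrains peptide exchange, overlapped with 9.74 and 10.03 against 9.48 to 10.01. In the class II region, the genes Psmb8, Psmb9 and Tap2, of class I loading and lying between H2-DMa and H2-Ab1, overlapped between the low and high arrays, while Tap1 was lower by 0.38.

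Of 22 dendritic cell genes, 15 lay below all high arrays (68.2%, against 8.88% of all genes) and 7 overlapped, with a median of -0.72. Mgl2, a lectin also made by macrophages, read 7.01 and 7.53 against 9.76, 10.49 and 11.09. Itgax, the CD11c chain, read 6.69 and 6.62 against 7.87, 8.44 and 8.98. The genes that define dendritic cell subsets, Xcr1, Clec9a, Siglech and Zbtb46, overlapped and were at most 7.92 on all 8 arrays. Monocyte, granulocyte and class II averages thus moved with the split, and the part of other cells in the lower class II, lipid and immediate early signals was not tested.

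Most lipid uptake and storage genes were lower, and none of the cholesterol or fatty acid synthesis genes lay below all high arrays. Of 33 genes of lipid uptake, storage and efflux, 19 lay below all high arrays (57.6%, against 8.88% of all genes). Another 3 lay above (9.09%, near the 9.91% of all genes) and 11 overlapped. Gpnmb, a membrane glycoprotein of lipid-loaded macrophages, read 6.64 and 6.57 against 10.53, 11.42 and 12.08. Lpl, lipoprotein lipase, read 6.53 and 6.54 against 9.02, 10.08 and 10.84. Cd36, a fatty acid and scavenger receptor, read 5.56 and 5.61 against 8.14, 8.32 and 8.55.

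The fatty acid carriers were lower too, Fabp5 with 8.24 and 8.39 against 10.70, 10.96 and 11.99, and Fabp4 with 6.22 and 6.09 against 7.81, 8.51 and 9.31. Pltp, which transfers phospholipids between lipoproteins, read 7.58 and 7.51 against 8.68 to 10.85, and Pparg, the nuclear receptor of fat storage, 6.79 and 6.62 against 7.92 to 9.23. Apoe touched the edge, with 9.04 and 9.03 against 9.06, 10.51 and 11.89. Plin2, which coats lipid droplets, overlapped. Cyp4a12a, a fatty acid hydroxylase, was higher with 12.77 and 13.13 against 11.29, 12.01 and 12.37. Its near-identical neighbour Cyp4a12b may share probes with it.

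Cholesterol synthesis genes had small differences above 0, and most overlapped. All 20 measured had differences above 0, from 0.06 to 0.76, but 16 overlapped and 4 lay above all high arrays. The 4 above made up 20% of the list, against 9.91% of all genes, and none lay below, against 8.88% of all genes. Those 4 were Msmo1, Hmgcs1, Stard4 and Srebf2. Msmo1, a sterol demethylase, read 12.69 and 12.48 against 11.35, 11.78 and 12.25, and Hmgcs1, of the first steps of the pathway, 11.63 and 11.30 against 10.49, 10.87 and 11.29. The averages over the list were 11 and 10.68 on the low arrays and 10.05 to 10.87 on the high arrays, so they overlapped. Wild type replicates 1 at 2 weeks (10.83) and at 10 weeks (10.87) were above low array 3. The lowest averages were those of ACKR2-/- 10-week array 1 (10.05) and wild type 10-week array 3 (10.10). Fatty acid synthesis and desaturation genes had a median of 0.16 with 16 of 19 overlapping. The rest lay above (15.8%, against 9.91% of all genes) and none below. Elovl7, an elongase, was higher with 11.06 and 11.17 against 9.98 to 10.44.

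Of 18 eicosanoid genes, 11 overlapped, and 38.9% were without overlap, against 18.8% of all genes. Alox5 and Alox5ap, with which mast cells make leukotrienes, read 13.43 and 13.57 against 13.49 to 13.70, and 12.95 and 13.09 against 12.88 to 13.17. Hpgds, the prostaglandin D synthase of mast cells, was slightly higher at 11.18 and 11.13 against 10.58 to 11.02. Ptgs2, the inducible cyclooxygenase, was lower with 6.76 and 7.15 against 8.23, 9.29 and 10.40. Akr1c18, an enzyme that inactivates progesterone, is in none of the lists. It had the largest difference of all ranked genes, with 6.27 and 5.81 against 12.32, 12.68 and 13.10. That is a 101-fold difference, with the 6 high arrays within 1 log2 unit of each other.

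Immediate early genes were lower as a group. Of 32 measured, 23 lay below all high arrays (71.9%, against 8.88% of all genes) and 9 overlapped. A margin of at least 1 log2 unit was passed downward by 11 of the 32, and by 1.14% of all genes. Fosb read 7.78 and 8.06 against 11.25, 11.83 and 11.98, and Fos read 8.01 and 8.58 against 11.49, 11.74 and 12.43. Both encode partners of Jun in the AP-1 factor. Btg2, an early gene that restrains growth, read 8.70 and 9.95 against 11.70, 12.19 and 12.61. Nr4a1, an orphan nuclear receptor, read 8.01 and 8.35 against 9.99, 10.57 and 11.45, and Egr2, a zinc finger factor, 7.98 and 8.38 against 9.62, 10.62 and 11.03. In Fos, Fosb, Btg2, Nr4a1 and Egr2 array 2 of the ACKR2-/- cells was the lower of the pair.

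Some early genes were lower from a high level. Jun read 10.86 and 10.97 against 12.35, 12.49 and 12.98, and Dusp1, a phosphatase that switches off MAP kinases, 10.61 and 11.07 against 12.24, 12.59 and 13.29. Myc did not follow, with 11.99 and 12.03 against 10.02, 11.75 and 12.20. The averages over the 32 genes were 9.22 and 9.50 on the low arrays and 10.30 to 10.73 on the high arrays.

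**Figure D3:**
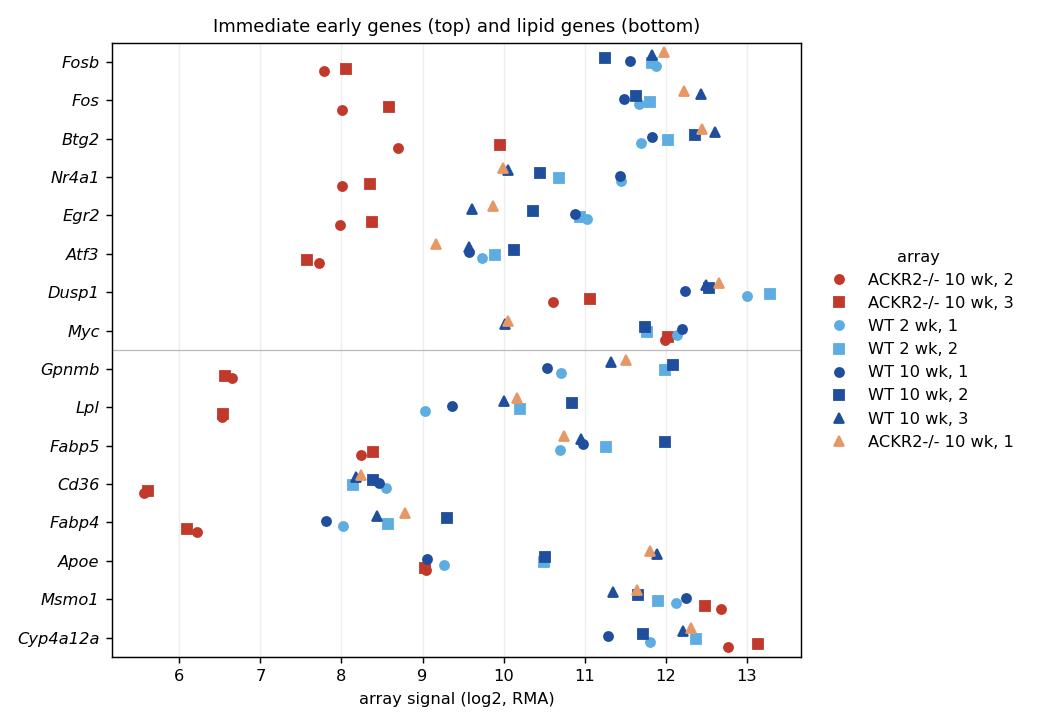
Signal (horizontal axis, log2) of 8 immediate early genes and 8 lipid genes on each of the 8 arrays, with 1 symbol per array and red for the 2 low Prss34 arrays. The red symbols lie left of all others from Fosb to Dusp1 and from Gpnmb to Fabp4, meet the lowest high arrays in Apoe, lie among the others in Myc, and lie right of them in Msmo1 and Cyp4a12a.

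Genes that NF-kB induces were lower by less. Of 20, 10 lay below all high arrays (50%, against 8.88% of all genes), 2 above (10%, near the 9.91% of all genes) and 8 overlapped. None was below by 1 log2 unit between nearest arrays. Nfkbiz, an inducible regulator, read 9.10 and 9.38 against 9.89 to 10.31, and Nfkbia, the inhibitor of NF-kB, 9.79 and 9.95 against 9.98 to 10.80. Of 30 cytokine genes, 5 lay below (16.7%, against 8.88% of all genes), 1 above (3.33%, against 9.91%) and 24 overlapped. Il6 read 10.92 and 11.10 against 10.86 to 12.12, Il13 read 8.44 and 8.69 against 8.64 to 9.93, and Tnf read 8.96 and 9.38 against 7.92 to 10.28. The 5 were Il1a, Hgf, Osm, Ebi3 and Il18, and Il1b was higher with 8.81 and 8.95 against 7.86, 8.03 and 8.42. Hgf, hepatocyte growth factor, read 9.66 and 10.04 against 11.12 to 11.38.

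Of 26 chemokine genes, 15 lay below all high arrays (57.7%, against 8.88% of all genes) and 11 overlapped, with a median of -0.83. Ppbp and Pf4, chemokines of platelets and megakaryocytes, read 6.43 and 6.48 against 9.17, 10.02 and 12.69, and 6.99 and 6.97 against 8.41, 10.06 and 11.71. Ccl6 and Ccl9, made by myeloid cells, were lower but differed between the 2 low arrays. Ccl6 read 11.28 and 9.18 against 13.17, 13.37 and 13.77, and Ccl9 read 9.24 and 8.01 against 11.32, 11.56 and 11.81. Ccl24 read 7.37 and 7.28 against 8.19, 9.88 and 11.17. Ccl2, an inflammatory CC chemokine that ACKR2 takes up, was just below with 12.95 and 13.24 against 13.28 to 13.60.

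Genes of lymphoid and stromal cells had medians near 0, with some T cell, NK cell and stromal members lower. All 14 B cell genes overlapped, with a median of -0.13, and Cd79a read 5.99 and 5.59 against 5.12 to 5.83. Of 20 T and NK cell genes 15 overlapped, among them Cd3e, Cd3g, Cd4 and Cd8a, and 5 lay below all high arrays (25%, against 8.88% of all genes). Nkg7 and Eomes were below by more than 1 log2 unit between nearest arrays, and Thy1, Ncr1 and Klrb1c by less. Nkg7, which encodes a granule protein of cytotoxic cells, read 7.51 and 7.14 against 9.30, 9.88 and 10.23, and Eomes, a T-box factor of such cells, 9.80 and 8.90 against 10.97, 11.32 and 11.99. Of 16 stromal genes 5 lay below (31.2%, against 8.88% of all genes), 1 above (6.25%, against 9.91%) and 10 overlapped. Their median was -0.07 and none was past the 1 log2 margin. The 5 were Thy1, Pdgfrb, Lum, Vim and Cxcl12, with differences from -1.49 to -0.26, and Col1a1, Col3a1 and Dcn overlapped.

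Of 9 megakaryocyte genes, Ppbp, Pf4 and Itgb3 lay below (33.3%, against 8.88% of all genes). Itga2b, an integrin chain also known from mast cells, was higher with 13.08 and 13.07 against 12.53, 12.59 and 12.66. Of 17 progenitor genes 5 lay below (29.4%, against 8.88% of all genes), 5 above (29.4%, against 9.91%) and 7 overlapped. Cd48 read 9.48 and 10.14 against 10.96 to 11.36, and Myb, a factor of precursor cells, 11.54 and 11.43 against 10.56 to 11.22. Of 24 interferon-stimulated genes, 6 lay below (25%, against 8.88% of all genes) and 3 above (12.5%, against 9.91%), none of them past the 1 log2 margin. Ifih1, a sensor of viral RNA, had the largest difference, -1.13. Of 33 cell cycle genes 32 overlapped, and Mki67 read 10.52 and 10.49 against 9.62 to 11.86, so the low arrays stood inside the range of the high ones. E2f2 was lower with 8.17 and 8.10 against 8.76 to 9.84. Of 9 erythroid genes 8 overlapped.

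Outside the lists, the genes with the largest differences, besides Akr1c18, were of mixed function. Wfdc17, a small secreted protein of macrophages, read 5.35 and 5.71 against 11.04, 12.37 and 12.96, and Klk1b11, of the large kallikrein family whose members can share probes, 5.85 and 5.13 against 8.98, 10.91 and 11.85. Cd81, a tetraspanin, read 7.75 and 8.23 against 11.79, 12.48 and 13.01.

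The largest increase was that of Rgs13, a regulator of G protein signalling known from mast cells and germinal centre B cells. It read 10.30 and 10.24 against 5.21, 5.93 and 7.61, a 16.0-fold difference, and its 2 highest high arrays were wild type replicates 1 at 2 and at 10 weeks, both at 7.61. Gulp1, an adaptor of engulfment, read 9.27 and 9.0 against 5.43, 6.10 and 7.09. Vcan, a matrix proteoglycan that sits in the monocyte list, read 12.38 and 12.07 against 8.53, 8.99 and 10.37. Its direction was opposite to that of most of its list.

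Nox4, an oxidase that makes hydrogen peroxide, read 8.17 and 8.72 against 5.64, 5.79 and 5.93, and its high arrays were close together. Avil, an actin-binding protein, read 12.44 and 11.94 against 9.68, 9.79 and 10.05. Gcsam, Cd209c, Asphd2, Casp12, Smpx, Ctnna2 and Ccdc180 completed the 12 largest increases, with differences from 2.02 to 2.67. The difference of Ccdc180, 2.02 on its brightest probe set, was 0.25 when all its probe sets were averaged. Ackr1, an atypical chemokine receptor related to ACKR2, was among the 27 genes and is named after its values were seen. It read 9.82 and 10.33 against 7.83, 8.30 and 8.61.

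The labelled comparison of ACKR2-/- with wild type cells at 10 weeks called none of these genes. With limma on all 12 arrays, 0 of 19938 genes (0%) had an adjusted p under 0.05 after Benjamini-Hochberg adjustment, the lowest adjusted p was 0.448, and 1566 genes had an unadjusted p under 0.05. Prss34 differed by -3.68 ± 1.35 (SE, 3 arrays against 3) with a limma adjusted p of 0.555, Mcpt8 by -4.15 ± 1.67 (0.582), Cd74 by -3.42 ± 1.08 (0.509) and Ms4a6c by -3.39 ± 0.88 (0.480). Fcer1a differed by 0.24 ± 1.87 and Kit by 0.14 ± 1.03, both with a limma adjusted p of 0.999. The standard errors include the spread of the arrays outside the split. Since replicate 1 belongs to the high arrays, the labelled ACKR2-/- group at 10 weeks held both sides of the split. Without that array the fit set the 2 low arrays against wild type, so the genotype and the split by Prss34 cannot be told apart in it. Because measured values chose those arrays, the number of genes called in that fit is not given.

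The place of ACKR2-/- 10-week array 1 was read in genes chosen without it, since the 228 genes had to be high on that array. Set against the 5 wild type high arrays alone, 245 genes were lower on the low arrays by at least 1 log2 unit between nearest arrays and 28 were higher. Of the 245, array 1 was nearer to the mean of the 3 wild type 10-week arrays than to the mean of the low arrays for 235, and nearer to the low arrays for 10. It was within 1 log2 unit of the wild type mean for 221, at least 1 unit below for 20 and at least 1 unit above for 4, with a median difference of -0.19. On none of the 245 did it read as low as either low array. It lay below all 5 wild type arrays for 58 of them, and over all genes it did so for 10.8%.

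The 10 genes in which array 1 was nearer to the low arrays included genes of granulocytes, mast cells and macrophages, and they are named after their values were seen. Prg2 read 6.77 on array 1, with a mean of 6.45 on the low arrays and 9.25 on the wild type 10-week arrays. Mcpt4 read 8.66 between means of 7.29 and 10.97, Ccl24 read 8.19 between 7.33 and 10.31, and Mmp8, the collagenase of neutrophils, 7.76 between 5.93 and 9.61. For Mmp8 array 1 was about midway and above wild type 2-week array 1 (7.19). The others were Ms4a4a, Sorl1, Prtn3, Plbd1, Clec4n and Clec5a. Prss34 (-1.15), Mcpt8 (-1.08) and Ms4a6c (-1.64) were at least 1 unit below the wild type mean but nearer to it than to the low arrays. Cd74 (-0.22), Akr1c18 (0.38) and Rnase2a (0.16) were near the wild type mean, and Fn1, fibronectin, was above it by 1.78. Of the 28 higher genes array 1 was nearer to wild type for 27, and Syn2, at 10.11 between 10.53 and 8.48, was the exception.

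**Figure D4:**
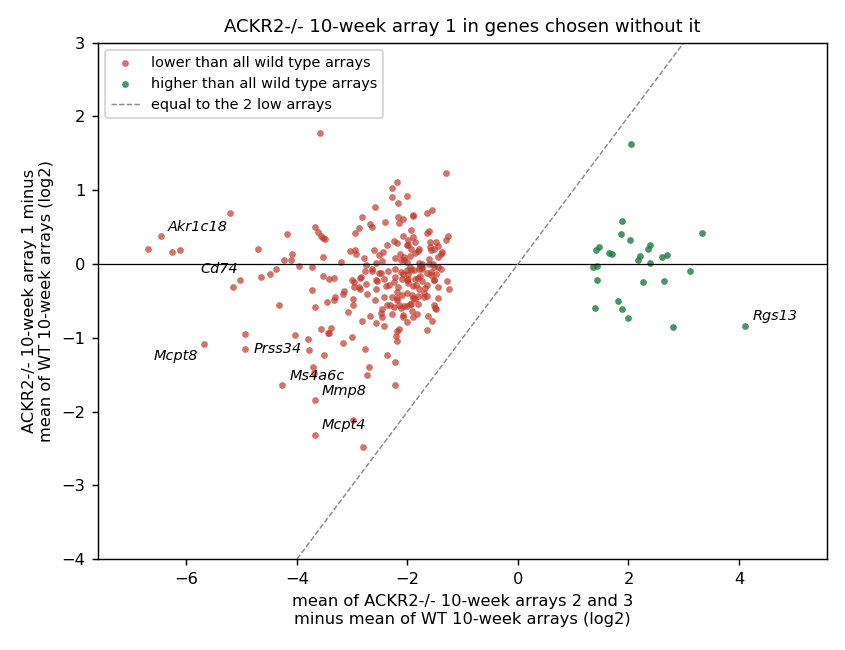
For the 245 lower and 28 higher genes at least 1 log2 unit apart between the nearest low and wild type arrays, chosen without ACKR2-/- 10-week array 1, the position of the 2 low arrays (horizontal axis) and of array 1 (vertical axis), both relative to the mean of the 3 wild type 10-week arrays (log2). Of the 245 red points 221 lie within 1 unit of 0 on the vertical axis, and 10, Mcpt4 and Mmp8 among them, are nearer in value to the low arrays (dashed line) than to wild type.

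The 2 low arrays resembled each other more than any high array. They differed by at least 2-fold in 115 genes, and each differed from the high arrays in 635 to 978 genes. Both were nearest to ACKR2-/- 10-week array 1, with 696 and 635 genes. The high arrays were no uniform group, with 34 to 830 genes between pairs. The closest pair was wild type replicate 1 at 2 and at 10 weeks, with 34 genes, followed by wild type replicate 2 at both times, with 96. By this count ACKR2-/- 10-week array 1 was closest to wild type 10-week replicate 3, with 121 genes. By correlation across genes it was closest to wild type 2-week replicate 2 (0.9906, against 0.9890 with wild type 10-week replicate 3). Wild type 2-week replicate 2 correlated at 0.9905 with replicate 2 at 10 weeks and at 0.9903 with replicate 1 at 2 weeks. In wild type cells likeness thus followed the replicate number more than the week by the count, but for replicate 2 hardly by correlation. What the replicate number stands for is not given in the labels.

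**Figure D5:**
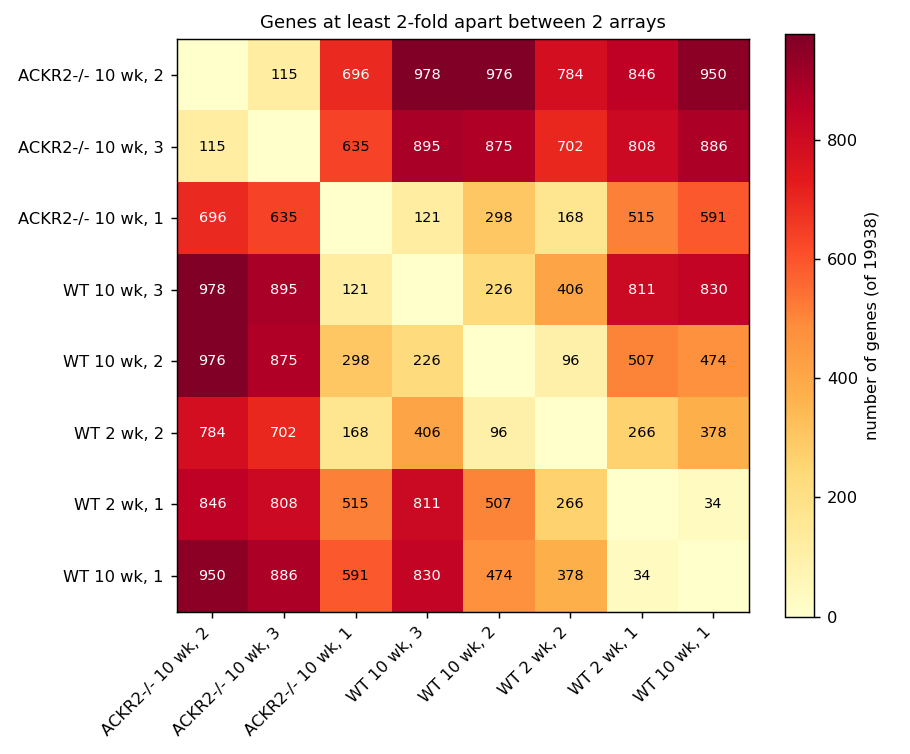
Number of genes, of 19938, that differ at least 2-fold between each pair of the 8 arrays (colour and printed count). The 2 low arrays, at the top left, share a pale cell of 115 and dark cells of 635 to 978 with all others, and the palest cell, 34, joins wild type replicate 1 at 2 and at 10 weeks.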

How the data were processed

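RNA of each sample was hybridised to 1 single-colour array, with 250 ng of total RNA labelled per the labels' protocols. Per the submitters' processing notes, the deposited log2 values of 35399 probe sets were computed by the RMA method (Partek 6.5). This method corrects background, gives all arrays 1 distribution and summarises probes, so no detection call or scan batch was examined and the number of arrays limits precision. The genome build of the probe sets is not given in the sources used here. The platform annotation gave 1 symbol to 21789 probe sets, several to 1621 (left unnamed) and none to 11989. Each of 19938 genes is represented by its brightest probe set (by the mean of the 12 arrays), and 999 genes had several. Of 630 listed genes, 578 were measured, 2 through an older symbol.

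Arrays were divided as the opening states. A gene was counted as lower or higher with at least 1 log2 unit between the nearest low and high arrays, and the plain count without overlap was taken as well. No test was made on this division. The labelled groups were compared with limma 3.58.1 in R 4.3.3, with 1 mean per group over 12 arrays (8 residual and 2.39 prior degrees of freedom), Benjamini-Hochberg adjustment over all genes and a threshold of 0.05. The code of both steps was run on simulated arrays with planted changes and 1 small spread for all arrays. These runs do not show whether limma could call genes at the spread of the real arrays. The members and lists were chosen with earlier results of these data known. Named genes are the 4 markers, the 12 largest decreases and increases past the 1 log2 margin (without predicted, small RNA, receptor segment and olfactory genes), up to 6 members per list without overlap, the 6 mast cell list members with the smallest difference, and members given for a known role or as a contrast. Locus order came from RefSeq on GRCm38.p6, and the loci were chosen after values were seen. Promoters came from the same RefSeq set, which had entries for 7 of 8 genes looked up and none for H2-Ab1. Over the 10-week arrays, deviations of same-numbered arrays of the 2 genotypes from their group means correlated at -0.31, -0.19 and -0.18 across genes, so the replicate numbers were not taken to pair them.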

Additional observations from a re-analysis of the deposited data

How the results depend on the processing

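The counts rest on the margin and on which arrays enter. With a margin of 0.5 log2 units, 479 genes were lower and 111 higher on the low arrays, and with 2 units 66 and 5. Against ACKR2-/- 10-week array 1 alone, the counts were 396 and 97. Leaving out 1 of the 8 arrays at a time gave 231 to 312 lower and 27 to 48 higher genes, and by construction it can only keep or add genes. The higher count was 48 without ACKR2-/- 10-week array 2 and 44 without array 3. Averaged probe sets, median centring, a floor of 8 on the brightest array, 10-week high arrays only and wild type high arrays only gave 225 to 245 lower and 25 to 32 higher genes. Of 593 single-gene differences, 142 of the 321 with overlap changed sign under at least 1 alternative. Of the 272 without overlap none did with averaged probe sets or median centring, and leaving out arrays cannot turn their sign. In the labelled comparison, limma called 0 to 129 genes when 1 of the 6 arrays at 10 weeks was left out, the 129 without ACKR2-/- array 1. With the replicate number as a replicate block it called 0, with a lowest adjusted p of 0.109, and averaged probe sets, centring, the floor and fits of 6 or 8 arrays also gave 0, with lowest adjusted p from 0.236 to 0.525. Genes with signals near 5 to 7 on both sides have no measured floor here.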

Other observations

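Growth factor, matrix and protease genes outside the lists were also among the 228 lower genes, and they are named after their values were seen. Mmp12, the elastase of macrophages, read 6.48 and 6.78 on the 2 low arrays and 10.56, 10.92 and 11.64 (lowest, median and highest) on the 6 high arrays. Igf1, insulin-like growth factor 1, read 6.77 and 6.54 against 9.84, 10.86 and 11.30, and Igf2r, a receptor that sorts lysosomal enzymes, 7.17 and 7.04 against 9.24, 10.11 and 10.62. Thbs1, the matrix protein thrombospondin 1, read 7.02 and 7.08 against 9.66, 10.55 and 11.59. Ifngr2, a chain of the interferon gamma receptor, read 7.75 and 8.65 against 11.30, 11.50 and 11.89. Mrgpra6, a relative of the Mrgpra4 gene that was higher, read 5.17 and 5.98 against 9.05, 9.60 and 10.16.

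The 2 low arrays were not alike throughout. Ccr2, a chemokine receptor of monocytes and basophils, read 6.11 on ACKR2-/- 10-week array 2 and 11.31 on array 3, which was within the 10.21 to 13.22 of the high arrays. Pla2g7, a phospholipase that degrades platelet-activating factor, read 9.76 on array 2 and 12.47 on array 3, against 12.14 to 12.68. Galc, a lysosomal galactosidase, read 7.52 and 10.04 against 9.60 to 10.17, and Gpr65, an acid-sensing receptor, 7.28 and 10.39 against 9.30 to 10.56. In these 4 genes only array 2 stood apart from the high arrays. Ccl6 was the reverse, with 11.28 on array 2 and 9.18 on array 3, and both were below the high arrays.

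The high arrays held a division of their own, described after their values were seen. Wild type 10-week array 3 and ACKR2-/- 10-week array 1 lay at least 1 log2 unit below the 4 other high arrays for 25 genes (0.125% of all) and above them for 12 (0.0602%). Mrgprb2, the receptor through which mouse mast cells respond to basic secretagogues, read 12.17 and 12.38 on this pair and 8.77, 9.28 and 9.70 on the 4 others, and its relative Mrgprb1 read 9.29 and 9.19 against 6.35 to 6.73. Retnla, a secreted protein of alternatively activated macrophages, read 8.58 and 8.66 against 5.37 to 5.97. Ngp, a neutrophil granule protein, was lower with 6.49 and 6.16 against 9.75 to 10.87, and Mcpt2, a mucosal chymase, with 8.61 and 8.72 against 10.63 to 12.75. On the low Prss34 arrays Mrgprb2 read 10.30 and 9.82, above the 4 other high arrays and below the pair, while Ngp, at 6.57 and 6.21, was near the pair.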
